A study of Mus musculus with 3 samples.

Results

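The ovarian surface epithelium of the thawed fetal ovarian somatic cells (FOSCs) was followed here through its cells with few mitotic transcripts. The members were chosen by their own UMI counts (a UMI, or unique molecular identifier, is 1 counted RNA molecule): a cell was taken if it held at least 1 UMI of Upk3b, at least 1 UMI of any of Krt7, Krt19 and Tm4sf5, fewer than 5 UMIs of the germ cell gene Dazl, and UMIs of fewer than 2 of the 5 cycling genes Top2a, Mki67, Ube2c, Ccnb1 and Cdc20. Of 28971 kept cells, 2337 (8.07%) met this rule. The cells came from CD1 mouse ovaries at E12.5, in 3 frozen lots (26, 29 and 30), each a pool of the embryos of 10 pregnant females from which germ and endothelial cells had been depleted with magnetic beads. All 3 lots are of 1 untreated condition, so the lots served as the replicates and no conditions were compared. Each lot is a pool, so the embryos within it cannot be told apart, and the cells were frozen and thawed before capture.

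The ovarian surface epithelium is the single layer of cells that covers the ovary. It descends from the coelomic epithelium, which lines the body cavity and also covers the early genital ridge, and it shares with other mesothelia a set of keratins, uroplakins and membrane mucins. In the fetal ovary it is known as a source of pre-granulosa cells, the somatic cells that come to surround the germ cells.

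The members made up 667 of 9711 kept cells in lot 26 (6.87%, exact Clopper-Pearson 95% interval 6.37% to 7.39%), 717 of 8553 in lot 29 (8.38%, 7.80% to 8.99%) and 953 of 10707 in lot 30 (8.90%, 8.37% to 9.46%). The mean share was 8.05% ± 1.06 (SD, n = 3 lots). The interval of lot 26 lay below those of the other lots, which overlapped, and the intervals cover counting error only. The share depended on how deeply a cell was read, since a single Upk3b UMI admits it: with every cell thinned to 4000 UMIs before the rule was applied it was 6.16%. The members of a lot held between 7343885 and 13333727 UMIs in sum, with medians of 12493, 9587 and 12599 UMIs per cell in lots 26, 29 and 30, against 10991.5, 8887.5 and 11476 in all other kept cells. No member barcode was shared between lots. Scrublet called 4.80%, 4.88% and 5.35% of the members doublets. A UMI of a Y-linked gene, which ovarian cells should lack, was held by 2.25%, 6.14% and 0.210% of the members. Among all other kept cells the shares with such a UMI were 3.77%, 11.1% and 0.933%.

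The 4 markers that chose the cells are given as a description, in CPM, the UMIs of a gene scaled to the summed UMIs of the class and lot. Upk3b, a uroplakin of mesothelial and urothelial membranes, stood at 285, 312 and 260 CPM in the summed members of lots 26, 29 and 30. Krt7, a keratin of simple epithelia, stood at 215, 238 and 215 CPM. Krt19, another such keratin, stood at 189, 159 and 141 CPM, and Tm4sf5, a tetraspan membrane protein, at 188, 228 and 189 CPM. Upk3b was sparse even in these cells: the median member held 3 UMIs of it, the highest 39, and 30.9% held exactly 1.

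The sequence around the transcription start is shown for the gene that defines the cells, Upk3b, for Lrrn4, a mesothelial membrane protein that rose in them, and for Tmem151a, the gene with the largest rise against all other cells among genes at 50 CPM or more. Each window is 300 bases from RefSeq (GRCm38.p6), 5′ to 3′ on the gene's strand. Capitals mark GGAATG or its reverse complement CATTCC, the core letters bound by TEAD factors, which was searched on both strands together with the GATA letters AGATAA and the TATA letters TATAAA.

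Upk3b, plus strand of chr5:136038246-136038545: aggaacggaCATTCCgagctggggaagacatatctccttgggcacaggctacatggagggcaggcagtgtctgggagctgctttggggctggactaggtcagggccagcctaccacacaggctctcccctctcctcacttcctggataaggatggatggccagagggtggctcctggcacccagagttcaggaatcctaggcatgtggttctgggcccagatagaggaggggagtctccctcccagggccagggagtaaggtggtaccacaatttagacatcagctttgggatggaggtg
Lrrn4, minus strand of chr2:132880813-132881112: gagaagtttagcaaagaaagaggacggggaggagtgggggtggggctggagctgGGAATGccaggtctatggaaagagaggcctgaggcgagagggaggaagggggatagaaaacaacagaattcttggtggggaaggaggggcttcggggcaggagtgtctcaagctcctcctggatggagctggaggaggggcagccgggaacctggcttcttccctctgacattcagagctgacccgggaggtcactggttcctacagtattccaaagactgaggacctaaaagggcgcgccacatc
Tmem151a, minus strand of chr19:5085442-5085741: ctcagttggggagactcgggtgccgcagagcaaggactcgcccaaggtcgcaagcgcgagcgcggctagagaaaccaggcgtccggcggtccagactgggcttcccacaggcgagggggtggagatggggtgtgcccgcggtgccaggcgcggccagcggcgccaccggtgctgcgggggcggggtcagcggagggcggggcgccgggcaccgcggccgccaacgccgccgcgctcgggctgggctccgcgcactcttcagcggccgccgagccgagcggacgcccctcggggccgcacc

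Of 11 genes of the surface epithelium looked up, 9 had a window, with 10 windows among them. The TEAD letters stood in 3 of these 10 windows, against 14.7% of all 32851 windows. The 3 were those of Upk3b and Lrrn4 and a window of Tmem108. The windows of Krt7, Tm4sf5, Krt18, Bnc1 and Fgf9, which are not printed, held no TEAD letters. The GATA letters stood only in the window of Fgf9, against 11.2% of all windows. No window held the TATA letters, against 13.6% of all windows. The window of Tmem151a held none of the letters searched. Such a match is a description of the sequence, and no binding was measured.

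The rule draws a line through a gradient. Among members, 907 cells held all 3 of Krt7, Krt19 and Tm4sf5, 890 held 2 of them and 540 held 1. Just outside it, 612 otherwise qualifying cells held Upk3b but none of the 3, and 156 held all 3 but no Upk3b. Tmem151a averaged 66.5 CPM over lots in members with all 3 genes, 61.2 CPM with 2, 30.3 CPM with 1 and 8.90 CPM in the cells just outside with none. The pre-granulosa gene Fst, an activin antagonist, ran the other way, from 73.1 CPM with all 3 genes to 84.7, 288 and 562 CPM. The 346 members admitted on 1 Upk3b UMI and 1 other gene carried 420 CPM of Wnt4 and 380 CPM of Fst, against 148 and 73.1 CPM in members with all 3 genes. The members with the fewest marker genes thus held the most Wnt4 and Fst. Whether free RNA or doublets put Upk3b UMIs into some of them was not tested.

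**Figure D1:**
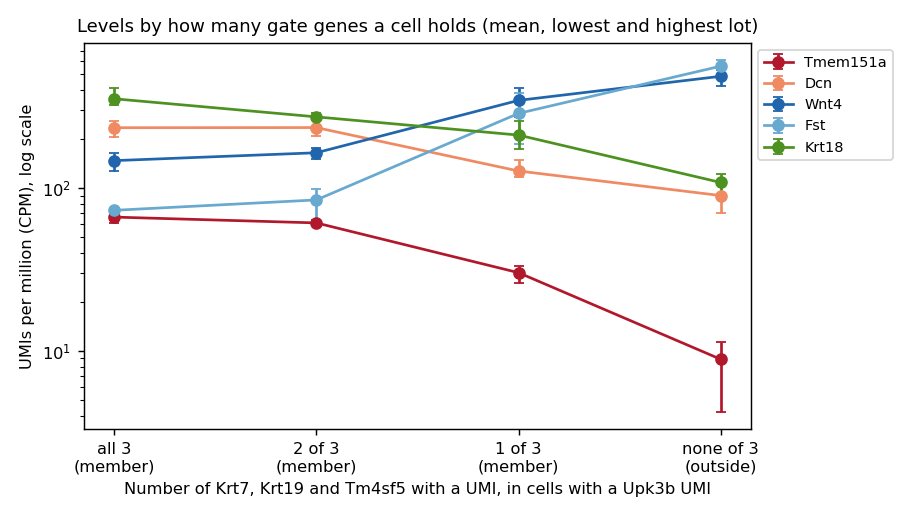
Level of 5 genes in CPM (log scale) in cells with a Upk3b UMI, by how many of Krt7, Krt19 and Tm4sf5 they hold, with points at the mean of 3 lots and bars from the lowest to the highest lot. Tmem151a falls from 66.5 to 8.90 CPM while Fst climbs from 73.1 to 562 CPM.

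Genes outside the rule were compared between the summed members and all other kept cells (edgeR quasi-likelihood test, n = 3 lots in each class, Benjamini-Hochberg adjustment over 14903 genes, threshold 0.05). Of these genes 1294 were higher in the members (8.68%) and 1868 were lower (12.53%). With library totals in place of TMM scaling, 904 were higher and 2310 lower, and with the lot as a block 3500 were higher (23.49%) and 3489 lower (23.41%). The other cells still held 2874 surface epithelial cells that failed only the limit on cycling genes. Leaving cycling and germ cells out of the other cells changed the sign of some differences, among them Rspo1 (to -0.33) and Epcam (to 1.0). The tested genes were measured in the same cells that the rule picked, and genes that accompany its markers differ in part through that choice.

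The 15 largest rises among genes at 50 CPM or more in the members are named here. Tmem151a, a transmembrane protein of little known function, stood at 53.5, 55.4 and 61.7 CPM in the members of lots 26, 29 and 30, against 11.8, 11.2 and 15.1 CPM in the other cells. No lot overlapped, and the log2 difference was 2.27 ± 0.13 (SE, edgeR adjusted p = 1.1e-05). Tmem108, a transmembrane protein, stood at 87.3, 98.6 and 86.2 CPM (log2 difference 1.94 ± 0.11, edgeR adjusted p = 1.1e-05). The unnamed transcript 1700026D08Rik, at 88.7, 79.9 and 81.1 CPM, rose by 1.99 ± 0.10 on the same scale. Hpgd, the enzyme that degrades prostaglandins, was higher in every lot at 63.8, 110 and 79.2 CPM (log2 difference 1.85 ± 0.22), with lot 29 above the others. The other genes named by the same rule were Aplp1, Stk26, the transcription factor Myrf, the guidance cue Sema3c, Gadd45b, the tyrosine-breakdown enzyme Fah, the calcium-binding S100a6, the myosin light chain Myl7, the metallothionein Mt2, Baiap2l1 and the keratin Krt18. Their log2 differences ran from 1.77 (Aplp1) down to 1.45 (Krt18), and all were higher in 3 of 3 lots. Baiap2l1 overlaps Bri3 on the opposite strand, and the strand setting of the counts is not given in the sources used here.

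**Figure D2:**
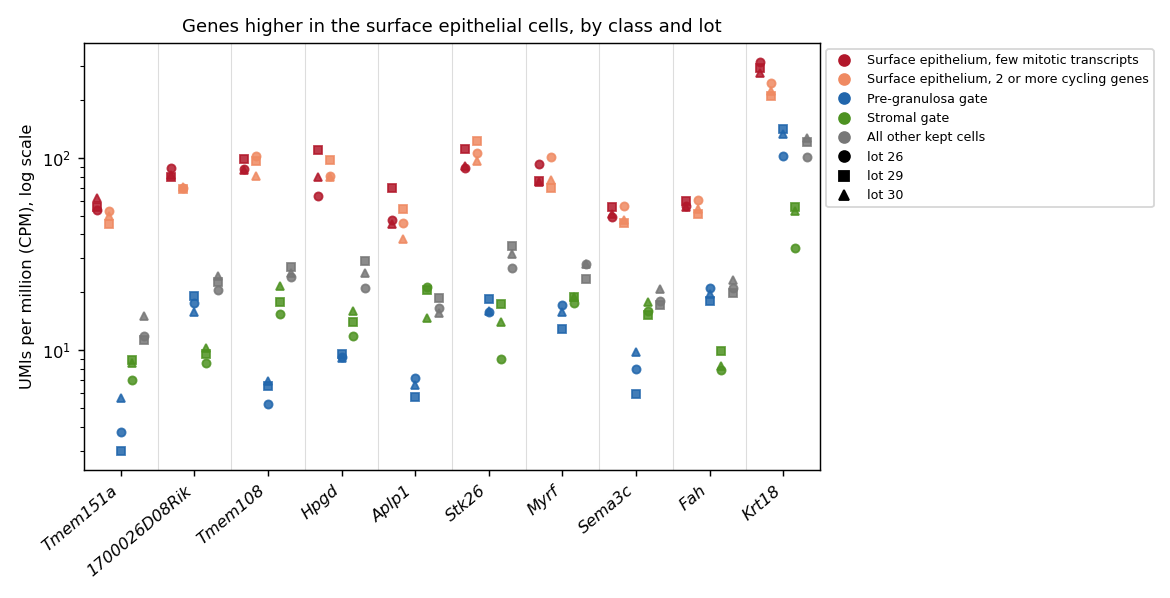
Level in CPM (log scale) of 10 genes that were higher in the members, 1 point per lot, by cell class. Members and the surface epithelial cells with 2 or more cycling genes lie side by side, while the pre-granulosa and stromal gates lie lower, as for Tmem151a at 56.9, 49.4, 4.13 and 8.16 CPM on average.

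The 10 largest falls belong to germ cells (Dppa5a, Smc1b, Rhox9, Stra8, Dppa3) and to dividing cells (Hmmr, Nusap1, Cenpf, Prc1, Esco2). The limits on Dazl and on cycling genes remove such cells from the members, so these falls follow from the rule. With germ and cycling cells taken out of the other cells as well, Dppa5a and Rhox9 no longer passed the threshold and the other 8 changed sign. Of these 8 only Cenpf passed the threshold after the change (log2 difference 0.38, edgeR adjusted p = 0.048).

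Of 18 mesothelial genes tested, 12 were higher and none lower by edgeR, by DESeq2 or at an unadjusted p under 0.05, with a median log2 difference of 1.35 against 0.00 over all genes. With the lot as a block 13 were higher and 1 lower, Lgals7. The sum over the whole list stood at 2473, 1878 and 2150 CPM in the members, against 1918, 1802 and 2051 CPM in the other cells and 3192 CPM on average in the pre-granulosa gate. Much of that sum was Lgals7, an epithelial galectin, at 1249 CPM on average in the members and 2732 CPM in the pre-granulosa gate. Against that gate 12 of 16 mesothelial genes were higher and Lgals7 and the keratin Krt20 lower (-1.14 and -1.25). Over all genes 18.54% were higher and 18.6% lower there. Krt18 stood at 315, 295 and 276 CPM in the members and at 101, 121 and 127 CPM in the other cells, with no overlap (log2 difference 1.45 ± 0.12, edgeR adjusted p = 9.5e-05). Its partner Krt8 stood at 156, 99.8 and 129 CPM (1.03 ± 0.15). Larger differences were those of Krt14 (log2 difference 2.07), Muc16, the mucin known as CA125 (2.04), the uroplakin Upk1b (2.30), Pkhd1l1 (2.19) and Lrrn4 (1.83). Bnc1, a zinc finger factor of mesothelium and keratinocytes, rose by 1.73, and Podxl and the membrane linker Ezr by 1.07 and 1.25. Mesothelin (Msln), a marker of mature mesothelium, was nearly absent at 0.559, 1.23 and 0.150 CPM, and did not pass the test.

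Of 18 transcription factors that found the gonad, 4 were higher in the members and 2 lower, the latter a share near the 12.53% over all genes. Lhx9, needed for gonad formation, stood at 537, 582 and 604 CPM (log2 difference 1.0 ± 0.13, edgeR adjusted p = 0.00088). Gata6 rose by 0.56, Emx2 by 0.40 and the Polycomb gene Cbx2 by 0.50. Emx2 lost its call without lot 26 or lot 30 and in the comparison with other cells that were neither cycling nor germ cells. Gata6 lost its call without lot 26 or lot 29, and Cbx2 without lot 30. Nr0b1 fell by 0.62, a call lost without lot 29. Wt1, at 305, 254 and 328 CPM, did not pass (edgeR adjusted p = 0.068) and did so with the lot as a block (4.6e-06) and by DESeq2 (0.019).

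Of 30 junction and polarity genes, 8 were higher and 7 lower, beside 8.68% and 12.53% over all genes. P-cadherin (Cdh3) stood at 48.8, 46.8 and 45.1 CPM (log2 difference 1.42 ± 0.10), and the apical polarity gene Crb2, the tight junction gene Cldn15 and the desmosome gene Dsp rose by 1.79, 2.11 and 0.64. Dsp lost its call without lot 29 or lot 30. E-cadherin (Cdh1) was at 1.90, 0.272 and 0.975 CPM in the members. N-cadherin (Cdh2), at 30.7 ± 0.4 CPM, did not pass (edgeR adjusted p = 0.43). Epcam, which germ cells also carry, was lower than in the other cells (log2 difference -0.53 ± 0.16). It was higher by 1.0 (edgeR adjusted p = 0.0011) once germ and cycling cells were left out of the other cells. The call of the lower level was lost without lot 26 or lot 29. Of 22 basement membrane genes 1 rose, laminin α5 (Lama5, by 1.47), a share below the 8.68% over all genes. Another 6 fell, among them Lama2 (-2.06), Lama4 (-1.62) and nidogen-1 (Nid1, -1.01).

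The Wnt and R-spondin pathways mark the female side of gonad development: R-spondins bind Lgr receptors and raise Wnt signalling, whose targets include Axin2, Lef1, Nkd1 and Sp5. Of 30 genes tested, 11 were higher and 3 lower, the latter a share near the 12.53% over all genes. Rspo3 stood at 39.7, 41.9 and 26.5 CPM in the members and at 15.9 CPM on average in the other cells (log2 difference 1.27 ± 0.18, edgeR adjusted p = 0.0015). The receptor Lgr6 rose by 1.24, to 2.13, 1.63 and 2.17 CPM, a call lost without lot 26 or lot 30. The ligands Wnt2b, Wnt5a and Wnt9a rose by 1.33, 0.67 and 0.77, and the targets Axin2, Lef1, Nkd1 and Sp5 by 0.36 to 0.52. The call of Axin2 was lost when any 1 lot was left out, that of Lef1 without lot 29 and that of Sp5 without lot 29 or lot 30. Wnt4, the ligand of pre-granulosa cells, fell to 187, 179 and 219 CPM against 335, 330 and 403 CPM (log2 difference -0.77 ± 0.12), and the antagonist Dkk2 fell by 0.77, a call lost when any 1 lot was left out. Neither Rspo1 nor Lgr5 passed in this comparison (edgeR adjusted p = 0.096 and 0.25), and both passed with the lot as a block (0.0013 and 0.00055). Lgr5 also passed without lot 29 (adjusted p = 0.034), where it was lowest. Rspo1 changed direction and passed, at a log2 difference of -0.33 (edgeR adjusted p = 0.014), against other cells that were neither cycling nor germ cells.

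**Figure D3:**
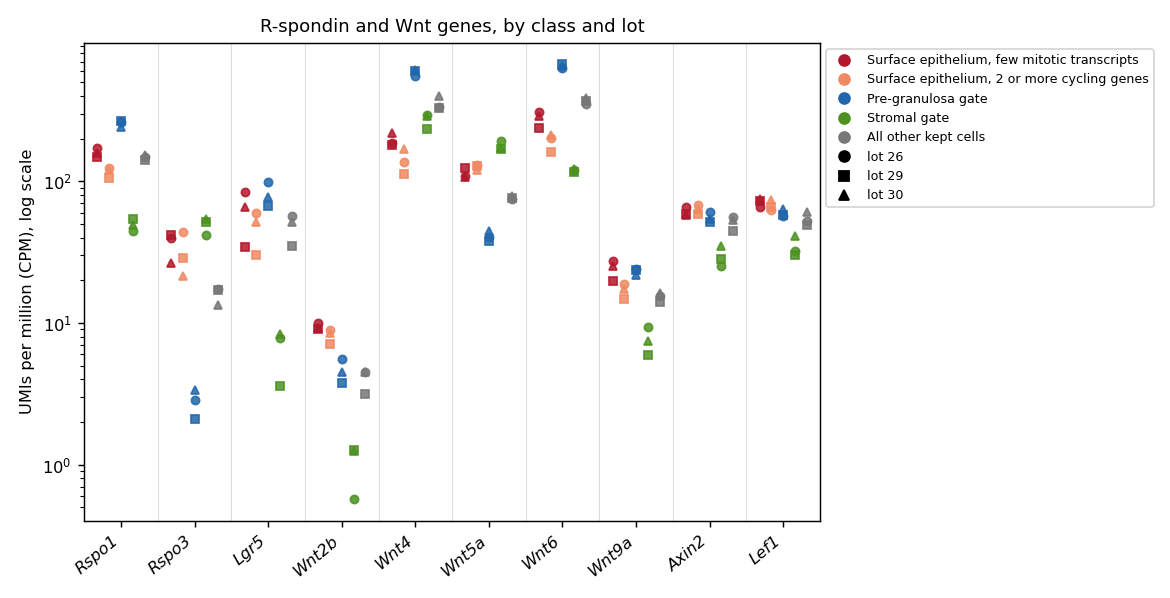
Level in CPM (log scale) of 10 R-spondin and Wnt pathway genes by cell class, 1 point per lot. Rspo3 is high in members and in the stromal gate (36.0 and 49.0 CPM on average) and low in the pre-granulosa gate (2.77 CPM), and Wnt4 is highest in the pre-granulosa gate.

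Of 30 growth factors, their receptors and binding proteins, 14 were higher and 2 lower, the latter a share below the 12.53% over all genes. Igfbp2, which binds insulin-like growth factors, stood at 810, 708 and 648 CPM (log2 difference 1.27 ± 0.10, edgeR adjusted p = 6.6e-05). The PDGF ligands Pdgfa, Pdgfc and Pdgfd rose by 0.57, 1.36 and 0.97, Fgf9 by 1.63, Fgf18 by 1.67 and midkine (Mdk) by 0.78. Pdgfa and Mdk lost their call without lot 30, and Fgf9 without lot 26. The summed list averaged 5246 CPM in the members, 4818 CPM in surface epithelial cells with cycling genes and 6698 CPM in the stromal gate. Against the stromal gate 8 of the 30 were higher and 10 lower. Against surface epithelial cells with cycling genes 2 were higher and none lower, and with the lot as a block 10 and 2. Against all other cells, 3 of 14 genes of the retinoic acid group were higher and 4 lower, beside 8.68% and 12.53% over all genes. Aldh1a2, which makes retinoic acid, stood at 210, 247 and 204 CPM against 93.2, 112 and 108 CPM (log2 difference 1.18 ± 0.13), and the carriers Crabp2 and Rbp4 rose by 1.39 and 0.68, and Rbp4 lost its call when any 1 lot was left out. Of 16 Notch genes 1 rose, Lfng, a modifier of Notch receptors (1.26), a share near the 8.68% over all genes. Lower were 9, among them Notch2 (-0.50) and Hey1 (-0.70). Both lost their call without lot 30, Notch2 also without lot 26 and Hey1 also without lot 29. Of 21 BMP and activin genes 2 were higher (Id4 and Smad6, both lost when 1 lot was left out), a share near the 8.68% over all genes, and 5 were lower, among them Fst and the inhibin subunit Inha, which fell by 1.51 and 1.04. Of 8 hedgehog genes the effectors Gli2 and Smo were higher and the receptor Ptch1 lower, and all 3 lost their call without lot 26 or lot 29. The 1 lower gene of 8 is a share near the 12.53% over all genes. Of 14 genes of mesenchymal transition 1 rose, the actin-binding Tagln (1.40), a share near the 8.68% over all genes. Another 6 fell, among them Snai1, Zeb1, Zeb2 and Twist1, the last of which lost its call without lot 26 or lot 30.

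Markers of other cell types were read in the same sums. Of 13 pre-granulosa genes 5 were lower by edgeR and none was higher by it, by DESeq2 or at an unadjusted p under 0.05, while with the lot as a block 2 were higher and 10 lower. The summed list stood at 2279, 1512 and 2020 CPM in the members against 5752, 5476 and 5169 CPM in the pre-granulosa gate. Of 16 stromal genes 7 were lower and 1 was higher, the latter a share near the 8.68% over all genes. The 1 higher was the matrix proteoglycan Dcn at 206, 216 and 221 CPM (log2 difference 0.99 ± 0.08). Of 7 endothelial genes 1 was higher, against 8.68% over all genes. It was Kdr, the VEGF receptor, at 60.4, 60.3 and 62.5 CPM (1.09 ± 0.12). Another 4 were lower (Pecam1, Cdh5, Emcn and Tie1), against 12.53% over all genes, with a list median of -2.39. Pecam1 was at 4.03, 1.63 and 1.65 CPM and Cdh5 was at 1.90, 0 and 0.525 CPM. Of 7 genes listed for the border of epithelium and mesenchyme, 5 were higher, against 8.68% over all genes. Among them were Hand2 (1.26), Hoxd11 (1.78) and Dlk1 (0.89). The 1 lower, Tbx2 (-0.83), is a share near the 12.53% over all genes. The summed list averaged 551 CPM in the members and 612 CPM in the stromal gate. It averaged 627 CPM in surface epithelial cells with 2 or more cycling genes, against which none of the 7 passed by edgeR. With the lot as a block 1 was lower there. Against the stromal gate 3 were higher and 1 lower. Against all other cells 1 of 7 mesonephric and Müllerian genes was higher (Gata3, by 1.04), beside 8.68% over all genes. None was lower, with a list median of -0.83. With the lot as a block 2 were higher and 3 lower. Of 6 Sertoli cell genes 1 was higher (Fgf9), against 8.68% over all genes, and none lower, with a list median of -1.91. With the block 1 was higher and 5 lower. All 8 germ cell genes were lower, by the rule, with a summed level of 14.0 to 29 CPM. Of 7 myeloid genes 4 were lower, with 5.86 to 14.4 CPM in sum. All 6 red blood cell genes were lower, with 84.8 to 339 CPM in sum against 1396 to 4185 CPM. None of 4 Y-linked genes passed by edgeR, by DESeq2 or at an unadjusted p under 0.05. With the lot as a block 3 of the 4 were lower and none higher. The part of these cells' RNA in the results was not tested.

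The nearest comparison was with surface epithelial cells that held 2 or more of the cycling genes. Those cells were read more deeply, with medians of 17869, 13780 and 18333 UMIs in lots 26, 29 and 30. Scrublet called 11.8%, 9.14% and 15.1% of them doublets, against 4.80%, 4.88% and 5.35% of the members. Of 13521 genes 483 were higher in the members (3.57%) and 732 lower (5.41%), and with the lot as a block 2028 (15%) and 1888 (13.96%). With called doublets left out, 718 were higher and 809 lower. The 5 largest rises at 50 CPM or more were Cdkn1a, Mxd4, Gm11744, Ung and Ccnd2. Cdkn1a, which encodes the cell cycle inhibitor p21, stood at 75.2, 82.1 and 78.1 CPM against 39.5, 35.1 and 40.4 CPM (log2 difference 1.05 ± 0.16, edgeR adjusted p = 0.00055). Mxd4, an antagonist of Myc, rose by 0.81 ± 0.09. Without either lot 26 or lot 30, Gm11744 and Ccnd2 lost their call. The falls, led by Hmmr, Nusap1, Cenpf, Hist1h2af and Prc1, follow from the split on cycling genes. Of 16 mesothelial genes 1 was higher in the members (Lgals7), and of 24 junction genes 1 (the desmosome gene Pkp2). Both shares lie not far above the 3.57% over all genes. Of 30 Wnt and R-spondin genes 4 were higher: Rspo1 (0.47), Wnt4 (0.49), Wnt6 (0.54) and Wnt9a (0.52). Leaving out lot 26 or lot 30 ended the call of all 4, and leaving out lot 29 that of Wnt4. Of 13 pre-granulosa genes 4 were higher (Wnt4, Wnt6, Irx3 and Runx1), and 11 with the lot as a block. Lgals7, Pkp2, Irx3 and Runx1 also lost their call without lot 26 or lot 30. Wnt4, Irx3 and Runx1 lost it too when 2 or more Upk3b UMIs were required, and Wnt6 did not (0.41, edgeR adjusted p = 0.014). The members near the edge of the rule held the most Wnt4 and Wnt6: the 346 with 1 Upk3b UMI and 1 other marker gene averaged 420 CPM of Wnt4 and 462 CPM of Wnt6, against 148 and 249 CPM in members with all 3 genes. The 541 surface epithelial cells with exactly 2 cycling genes were not split by marker genes. They averaged 168 ± 55 CPM of Wnt4 and 253 ± 59 CPM of Wnt6 (SD, n = 3 lots). All members averaged 195 ± 21 and 278 ± 37 CPM.

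The name non-cycling was checked against genes outside the rule. With each cell thinned to 4000 UMIs, members held a UMI of 0.904 ± 0.033 (SD, n = 3 lots) of 20 G2 and M phase genes, against 7.62 ± 0.48 in surface epithelial cells with 2 or more cycling genes. They held 4.45 ± 0.13 of 20 S phase genes, against 5.39 ± 0.07 in those cells, 3.75 ± 0.06 in the stromal gate and 2.83 ± 0.06 in the pre-granulosa gate. All other kept cells held 3.79 ± 0.07. Unthinned, the members held 9.11 ± 0.55 S phase genes. Against all other cells 9 of the 20 S phase genes were higher and 2 lower, the latter a share near the 12.53% over all genes. Their summed level was 1467 ± 95 CPM in the members and 1464 ± 75 CPM in the other cells (SD, n = 3 lots). Against the pre-granulosa gate 19 of the 20 were higher in the members. Among them were the replication clamp Pcna (log2 difference 0.64) and the helicase subunit Mcm2 (0.72). Of the 20 G2 and M phase genes 13 were higher than in that gate and 1 lower, beside 18.54% and 18.6% over all genes. Of 17 cell cycle regulators 4 were higher than in all other cells (Cdkn1a, Ccnd1, Ccnd2 and Ccnd3) and 5 lower, among them Cdkn1b. Over all genes the shares were 8.68% and 12.53%. With cycling and germ cells left out of the other cells, Cdkn1a was at -0.0040 (edgeR adjusted p = 0.98), and Ccnd2 and Ccnd3 also lost their call. Leaving out lot 26 or lot 30 ended the calls of Cdkn1a, Ccnd2 and Ccnd3 too. The data thus go against the name non-cycling: the cells held few mitotic transcripts, by the rule, but held transcripts of DNA replication, and they are called here by the rule.

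**Figure D4:**
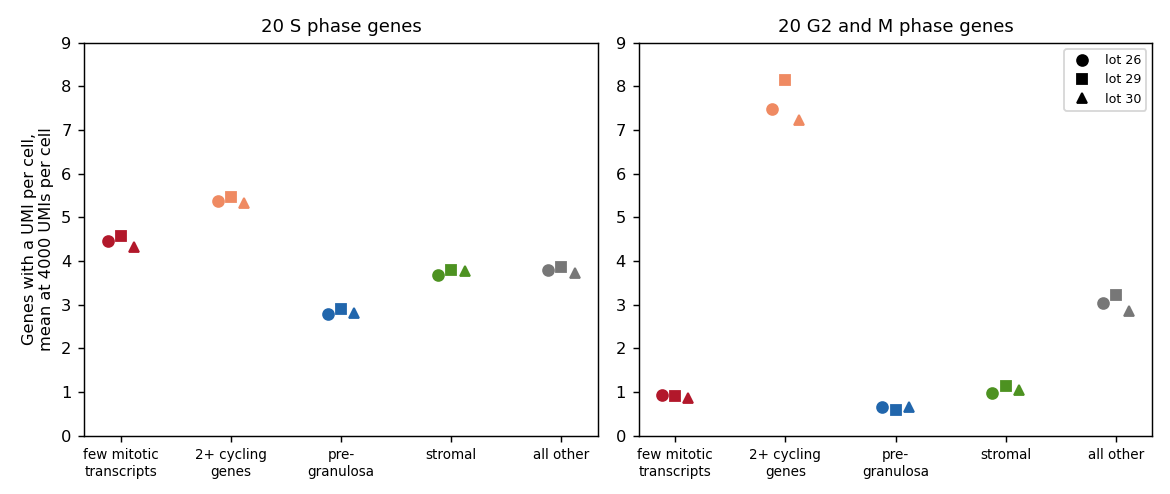
Mean number of 20 S phase genes (left) and 20 G2 and M phase genes outside the rule (right) with a UMI per cell, at 4000 UMIs per cell, 1 point per lot for each cell class. Members hold 4.45 S phase genes on average, more than the 2.83 of the pre-granulosa gate, and 0.904 G2 and M phase genes.

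Against the pre-granulosa gate (at least 2 of Bmp2, Gng13, Fst and Foxl2, no Upk3b, 10026 cells), 2506 of 13517 genes were higher (18.54%) and 2514 lower (18.6%), and with the lot as a block 3829 (28.33%) and 3906 (28.9%). S100a6 was the most raised of the genes named by rule, at 160, 205 and 112 CPM against 11.6, 7.68 and 9.72 CPM (log2 difference 4.04 ± 0.29, edgeR adjusted p = 5e-07). Tmem108, Tmem151a, Hpgd and Dcn followed, at 3.86, 3.75, 3.18 and 3.08. Among the largest falls were Wfdc10 (-2.65), the creatine enzyme Gatm (-2.51), the homeobox gene Rhox8 (-2.49) and the clock-linked repressor Bhlhe41 (-2.43). Rspo1 was lower in the members by 0.69 and Rspo3 higher by 3.65, so the 2 R-spondins differed in opposite directions. Wnt4 and Wnt6 were lower by 1.60 and 1.24. The cell cycle inhibitor Cdkn1b stood at 43.6, 29 and 42.5 CPM against 166, 155 and 145 CPM (log2 difference -2.02 ± 0.12). Epcam was higher here by 0.82.

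Against the stromal gate (Pdgfra and any of Dcn, Lum and Col3a1, no Upk3b, 2390 cells), 2588 of 13513 genes were higher (19.15%) and 2299 lower (17.01%), and with the lot as a block 3880 (28.71%) and 3258 (24.11%). With library totals in place of TMM scaling, 1997 were higher and 2900 lower. Mt2 stood at 165, 93.0 and 105 CPM against 7.89, 8.50 and 9.27 CPM (log2 difference 3.91 ± 0.27, edgeR adjusted p = 1.8e-07). Lgr5, an R-spondin receptor, followed at 84.0, 34.3 and 66.3 CPM against 7.89, 3.62 and 8.30 CPM (3.28 ± 0.36), with lot 29 lowest in both classes. 1700026D08Rik, 2900011O08Rik and Stk26 rose by 3.23, 3.13 and 2.96. The 5 largest falls at 50 CPM or more were the matrix gene Sparcl1 (-4.46), the integrin Itga8 (-4.33), the collagen Col6a3 (-3.68), the neurotrophin receptor Ngfr (-3.53) and the proteoglycan Vcan (-3.50). Rspo1 was higher by 1.80 and Wnt5a lower by 0.55. These comparisons share the sums of the members, so they are not independent of each other.

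Between lots, the widest gaps in the members were those of lot 30. Of 3278 genes at 50 CPM or more in a lot, 17 were more than 1 log2 unit higher in lot 30 than in both other lots, 3 were as much higher in lot 26, and none in lot 29. As much lower were 1 gene in lot 26 and 2 in lot 29. The 5 widest gaps were the heat shock genes Hspa1a, Hspa1b and Dnajb1, the stress-induced factor Atf3 and the growth factor Hbegf. Hspa1a stood at 74.2, 68.1 and 450 CPM in lots 26, 29 and 30, and Atf3 at 157, 357 and 1394 CPM. Lot 30 was also highest in the pre-granulosa gate, at 102, 92.3 and 502 CPM of Hspa1a. Hspa1a and Hspa1b are near-identical copies, so their counts may be split between them. Of 14 immediate early genes none differed between members and the other cells by edgeR, by DESeq2 or at an unadjusted p under 0.05, and with the lot as a block 8 were higher and 3 lower. Of 12 heat shock genes none differed by edgeR, 1 was higher by DESeq2 and 1 at an unadjusted p under 0.05, and with the block 8 were higher.

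**Figure D5:**
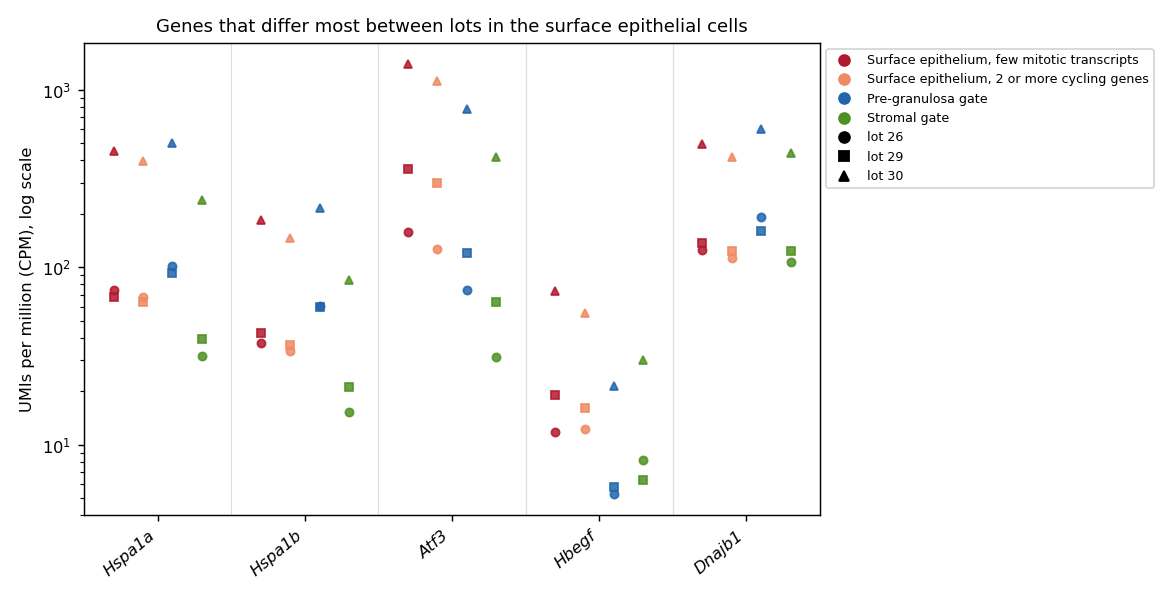
Level in CPM (log scale) of the 5 genes that differ most between lots in the members, by cell class, with a symbol for each lot. Lot 30 lies highest in all 4 classes, as for Hspa1a in the members at 450 CPM against 74.2 and 68.1 CPM.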

How the data were processed

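FOSCs of 3 lots were profiled with 10X Genomics 3' chemistry. Per the paper's methods and the submitters' processing notes, the authors used UMI-tools, STAR 2.7 on GRCm38 and featureCounts 2.0.1 on uniquely mapped reads, and deposited UMI counts per gene and cell without normalization. The annotation release and strand setting are not given in the sources used here. Barcodes with 200 to 9000 genes and at most 10% mitochondrial UMIs were kept, 28971 of 29103. Counts were summed per class and lot and tested with edgeR 4.0.16 in R 4.3.3 (filterByExpr, then TMM scaling and the quasi-likelihood test, adjusted by Benjamini-Hochberg over all genes tested), with the 10 genes of the rule and the genes of the other gates left out of testing. The test against all other cells was also run on counts simulated with the same spread for all genes. That setting lacks the pairing by lot of the real sums, and the other comparisons were not simulated. DESeq2 1.42.0 was an alternative. The lots were pooled separately, and classes of 1 lot come from the same pool: after subtracting class means, sums of 1 lot correlated at r = 0.29 to 0.46, so the lot was used as a block in an alternative fit. Doublets were called with Scrublet in scanpy 1.11.5 (expected rate 8%) and kept. Lots held 87494974 to 141920060 UMIs. Named genes were those of 26 lists, the 15 largest rises and 10 largest falls against all other cells (50 CPM or more, same direction in 3 lots), 5 per direction in the other comparisons and 5 between lots. The members and lists were chosen with earlier results of these data known. Leaving out cells with Y-linked UMIs was added after the data were seen. Promoter windows are from RefSeq. Some named-gene results are not reported here.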

Additional observations from a re-analysis of the deposited data

How the results depend on the processing

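With the lot as a block, that is with the classes of 1 lot paired, 3500 genes were higher and 3489 lower in the members than in all other cells, 2028 and 1888 against surface epithelium with cycling genes, and 3829 and 3906 against the pre-granulosa gate. The paired fit made 4 more of the 158 named-gene results pass, those of Lgr5, Rspo1 and Wt1, and changed no other call among the 158. Calls of list genes outside the 158 did change, as for Lgals7 against all other cells. Against surface epithelium with cycling genes, the higher pre-granulosa genes went from 4 to 11. With 1 lot left out, 551 to 824 genes were higher and 1002 to 1150 lower against all other cells, 40 to 310 and 413 to 624 against surface epithelium with cycling genes, 1353 to 2169 and 1533 to 2094 against the pre-granulosa gate, and 1216 to 2430 and 1491 to 2114 against the stromal gate. The low of 40 was without lot 26, and without lot 30 the count was 42. With cells thinned to 4000 UMIs before the rule, 241 genes were higher than in surface epithelium with cycling genes, and 1567 were higher and 1502 lower than in the stromal gate. The mean share of members was 17.9% with no limit on cycling genes, 5.57% with 2 or more Upk3b UMIs required and 6.16% after thinning.

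Once cycling and germ cells were left out of the other cells, 12 log2 differences changed sign: Smc1b to 0.062, Hmmr to 0.31, Nusap1 to 0.30, Stra8 to 0.33, Dppa3 to 0.32, Cenpf to 0.38, Prc1 to 0.056, Esco2 to 0.65, Epcam to 1.0, Rspo1 to -0.33, Cdkn1a to -0.0040 and Cdh2 to -0.11. Cdh2, which passed no test, was also at -0.015 after thinning. That alternative removes the cells in which most of the first 8 genes are read. Of these 8 only Cenpf passed there (edgeR adjusted p = 0.048), and the others stood at 0.21 to 0.93. Epcam and Rspo1 also passed there in the changed direction (edgeR adjusted p = 0.0011 and 0.014), and Cdkn1a and Cdh2 did not. For all 12 the cause of the change was not tested. Of 158 named-gene results, 29, 19 and 30 lost their call without lots 26, 29 and 30, and 9 after thinning and 9 with library totals in place of TMM scaling. Thinning before the rule moved 76 of 127 levels in the members by more than 1 SD between lots, and leaving out called doublets moved 4. With 3 lots and 1 condition, the spread is that between pools of embryos.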
